A study of Homo sapiens with 8 samples.

Results

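The histone genes described here are the 53 genes, of 4616 in the authors' deposited table, whose symbol starts with HIST and a digit, H1F, H2AF or H3F. They comprise 47 replication-dependent HIST genes and 6 variant genes, or, split the other way, 6 linker H1 genes and 47 core histone genes. Translational efficiency (TE, ribosome footprints over mRNA) was compared between WM902B melanoma cells carrying a hairpin against TINCR (shTINCR) and cells carrying a scrambled hairpin (shSCR). WM902B is an established line from a primary melanoma. All cells were at passage 18, carried BRAFV600E and received cycloheximide, which arrests elongating ribosomes, at 100 µg/ml for 5 min. The 8 libraries formed 4 groups of 2 biological replicates: shTINCR footprints, shTINCR RNA, shSCR footprints and shSCR RNA. The labels name 1 line, and 1 hairpin per condition.

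The table held one TE value per gene and condition, on a log2 scale, and no value of a single library, so neither the depth nor the replicate spread is known. The table does not show whether a TE change came with more footprints or with less mRNA. Its p-value, adjusted over all genes by Benjamini-Hochberg, is the only test of a change, and a gene is said to have risen or fallen where that adjusted p was below 0.05. TE of 16.4% of all genes passed, 8.23% upwards and 8.17% downwards. Of the 53 histone genes 9 rose and 1 fell, or 18.9% called, close to that 16.4%. The share of histone genes that rose was 17.0%, against 8.23% of all genes. The table also held a pair of estimates behind the final one, and 17.9% passed by the first and 20.3% by the second. At an adjusted p below 0.01 the share was 7.82%, and below 0.1 it was 22%. TINCR had 0 rows, so its silencing was not checked here. Of 8 melanocyte lineage markers 7 had a row, against 0 of 2 keratinocyte and 0 of 2 fibroblast markers.

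Core histones (H2A, H2B, H3 and H4) form the protein spool around which DNA is wound, and linker H1 binds where the DNA enters and leaves it. Most are made in S phase from the replication-dependent genes, which lack introns and whose mRNAs end in a stem-loop in place of a poly(A) tail. The stem-loop binding protein SLBP holds that end and is needed for processing and translation of these mRNAs. Variant histones are made throughout the cell cycle, mostly from spliced and polyadenylated mRNAs. The RNA libraries were titled as total RNA but their molecule subtype was given as polyA RNA. TE of a replication-dependent gene would be relative to any polyadenylated transcripts only, if the RNA was selected in that way, and the effect of this on the values was not tested.

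To show what sets the linker genes apart in the genome, the 190 bases before the annotated start of each replication-dependent H1 gene are given, from RefSeq (GRCh38.p14, all on chromosome 6), in the direction of the gene. Capitals mark a match, on either strand, to the H1 box (AAACACA), the CCAAT box (CCAAT) or the TATA box (TATAAA). The minus or plus after the coordinates is the strand.
HIST1H1E, chr6:26156139-26156328 (plus): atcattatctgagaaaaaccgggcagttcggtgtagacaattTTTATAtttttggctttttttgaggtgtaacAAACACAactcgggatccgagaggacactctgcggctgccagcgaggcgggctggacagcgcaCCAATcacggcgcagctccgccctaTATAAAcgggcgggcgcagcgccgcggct
HIST1H1A, chr6:26017788-26017977 (minus): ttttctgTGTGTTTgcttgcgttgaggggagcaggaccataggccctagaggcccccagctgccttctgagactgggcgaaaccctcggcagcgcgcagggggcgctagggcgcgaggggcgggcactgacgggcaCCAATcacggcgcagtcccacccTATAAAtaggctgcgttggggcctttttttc
HIST1H1B, chr6:27867589-27867778 (minus): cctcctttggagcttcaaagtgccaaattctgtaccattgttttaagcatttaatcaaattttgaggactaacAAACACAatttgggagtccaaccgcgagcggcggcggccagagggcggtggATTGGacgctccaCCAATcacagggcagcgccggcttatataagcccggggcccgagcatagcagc
HIST1H1C, chr6:26056471-26056660 (minus): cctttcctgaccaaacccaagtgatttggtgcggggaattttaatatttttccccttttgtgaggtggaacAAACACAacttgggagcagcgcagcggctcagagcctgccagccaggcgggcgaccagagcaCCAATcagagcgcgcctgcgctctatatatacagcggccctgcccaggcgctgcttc
HIST1H1D, chr6:26234988-26235177 (minus): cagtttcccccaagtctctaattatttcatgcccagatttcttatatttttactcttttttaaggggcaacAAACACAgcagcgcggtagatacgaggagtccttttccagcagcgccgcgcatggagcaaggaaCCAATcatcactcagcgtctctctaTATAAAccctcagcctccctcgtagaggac

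Each of the 5 linker sequences held the H1 box within 250 bases of the start, and 4 of them held it in the direction of the gene, beginning 117 to 119 bases before the start. In HIST1H1A the match lay on the opposite strand and 183 bases before the start. The H1 box was found in 4.95% of the 27305 promoters of the RefSeq table. It was in 0 of 38 from replication-dependent core genes and in 0 of 5 from variants. These 5 were core variants, because H1F0 had no promoter sequence and was not searched. A CCAAT box stood in all 5 linker promoters, and likewise in 33 of 38 from replication-dependent core genes and 4 of 5 from variants, against 33.0% of all promoters. The matches are a description, and their part in the TE values was not tested.

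TE of most linker H1 genes was higher in shTINCR than in shSCR cells. Of 6 measured genes 4 rose, 0 fell and 2 did not pass, where 8.23% of all genes rose and 16.4% were called in either direction. All 6 changes were positive in the authors' deposited table. At an adjusted p below 0.01, 2 rose, HIST1H1E and HIST1H1A, where 7.82% of all genes passed in either direction. The median log2 change of all 6 linker genes was 0.34 (1.26-fold), with a range of 0.20 to 0.60, against a median of 0.02 over all genes. The 47 core genes had 5 rises, 1 fall and a median of 0.09, with a range of -0.30 to 0.42. Classes of genes were not tested against each other, because genes are not replicates of a condition. In bulk cells a different share of cells in S phase and a different TE per cell cannot be told apart.

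HIST1H1E had a log2 TE of -0.79 in shTINCR cells, against -1.39 in shSCR cells, in the authors' deposited table. Its TE rose by 0.60 on the log2 scale, or 1.51-fold (adjusted p = 7.06e-08, from the authors' deposited table). This was the most positive change of the 53 genes, above that of 98.8% of all genes. HIST1H1A stood at -0.67 in shTINCR cells and at -1.25 in shSCR cells, a rise of 0.58 or 1.50-fold (adjusted p = 0.00465, from the authors' deposited table). HIST1H1B followed with -1.06 in shTINCR cells and -1.39 in shSCR cells, a rise of 0.33 or 1.26-fold (adjusted p = 0.0107, from the authors' deposited table). HIST1H1C, a linker gene that can also give polyadenylated mRNA, had the highest log2 TE of the replication-dependent linker genes, -0.46 in shTINCR cells against -0.73 in shSCR cells, in the authors' deposited table. Its rise of 0.27, or 1.21-fold, passed narrowly (adjusted p = 0.0444, from the authors' deposited table).

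The remaining linker genes, HIST1H1D and H1F0, did not pass. For HIST1H1D the authors' deposited table gave -1.13 in shTINCR cells and -1.33 in shSCR cells, a change of 0.20 (adjusted p = 0.111). H1F0, the linker variant that accumulates in resting and differentiated cells, stood at 0.0019 in shTINCR cells and -0.34 in shSCR cells, a change of 0.35 (adjusted p = 0.0954, from the authors' deposited table). Its change was close in size to the 0.33 of HIST1H1B in the authors' deposited table. If the p-value is read as a normal test, the change had an implied standard error of 0.150 for H1F0 and 0.0988 for HIST1H1B. Whether HIST1H1D differed from HIST1H1E was not tested, and both had the H1 box and the CCAAT box.

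**Figure D1:**
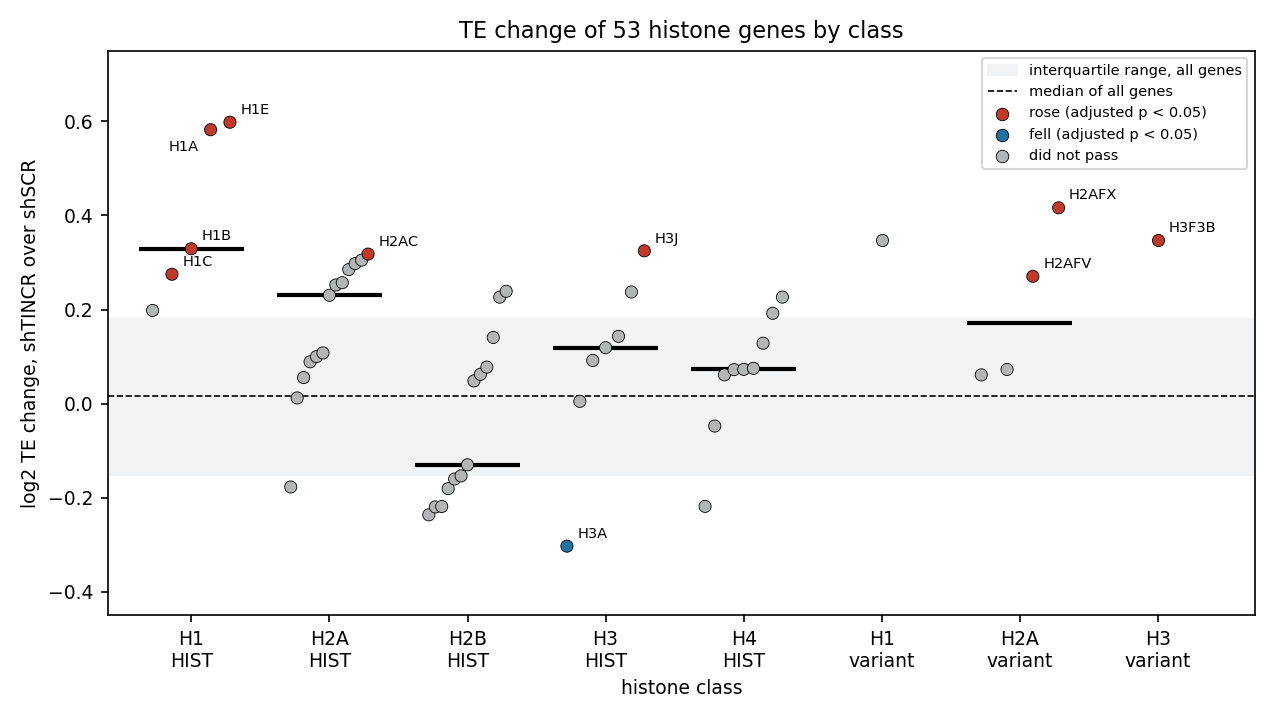
Log2 TE change, shTINCR over shSCR, of each histone gene (points) by class, with HIST genes to the left and variants to the right. Red points rose and the blue point fell at an adjusted p below 0.05, black bars are class medians, the band is the interquartile range of all genes and the dashed line is their median. All 6 linker genes lie above the band, from 0.20 to 0.60, while the 13 H2B genes lie on both sides of 0.

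The 42 replication-dependent core genes had few changes that passed. Of them 2 rose, 1 fell and 39 did not pass, or 7.14% called, below the 16.4% of all genes. Their median log2 change was 0.08, and 31 of the 42 changes were positive, against 52.5% of all genes. The positive values were uneven between the 4 core histones.

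H2A genes had the highest median among the replication-dependent core classes, 0.23 (1.17-fold), and 12 of 13 changes were positive. HIST1H2AC rose, and by the authors' second estimate HIST1H2AH, HIST1H2AD and HIST1H2AE rose as well, or 4 of 13. The final estimate thus called 7.69% of H2A genes. In either direction it called 16.4% of all genes, and the second estimate called 20.3%. The log2 TE of HIST1H2AC was -0.10 in shTINCR cells and -0.42 in shSCR cells, a rise of 0.32 or 1.25-fold (adjusted p = 0.00907, from the authors' deposited table). HIST1H2AH had a change of 0.28 that missed the threshold (adjusted p = 0.0622, from the authors' deposited table). The authors' deposited table gave changes of 0.30 for HIST3H2A, 0.30 for HIST1H2AK, 0.26 for HIST1H2AD, 0.25 for HIST2H2AC and 0.23 for HIST1H2AE, with adjusted p between 0.134 and 0.453. The changes of HIST2H2AB, HIST1H2AM, HIST1H2AB, HIST1H2AL and HIST1H2AG were between 0.01 and 0.11 in the authors' deposited table, and that of HIST1H2AI was -0.18 (adjusted p = 0.649).

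H2B genes split in sign, with 6 positive and 7 negative changes, and 0 of 13 passed. At an unadjusted p below 0.05 the count was also 0, where 729 of all 4616 genes passed upwards and 634 downwards. By the authors' second estimate 0 passed as well, where 16.4% of all genes passed by the final and 20.3% by the second estimate. In the authors' deposited table the changes ran from -0.24 for HIST1H2BF (adjusted p = 0.237) to 0.24 for HIST1H2BC (adjusted p = 0.179). HIST1H2BB and HIST1H2BG had changes of 0.23 and 0.14, and HIST1H2BL, HIST1H2BN and HIST2H2BE of 0.08, 0.06 and 0.05, according to the authors' deposited table. On the negative side, the authors' deposited table gave -0.22 for HIST1H2BK and HIST1H2BJ, -0.18 for HIST1H2BD, -0.16 for HIST1H2BO, -0.15 for HIST1H2BH and -0.13 for HIST1H2BE. The class median was -0.13, and 0.048 without HIST1H2BD and HIST1H2BK, which overlap other genes in the RefSeq annotation.

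Of the 7 replication-dependent H3 genes 1 rose and 1 fell, the only fall among the histone genes. Of all genes 8.23% rose and 8.17% fell, and among so few genes these counts are not far from that background. HIST1H3A had a log2 TE of -0.85 in shTINCR cells and -0.54 in shSCR cells, and fell by 0.30 to 0.811-fold (adjusted p = 0.047), close to the threshold, in the authors' deposited table. HIST1H3J stood at 0.24 in shTINCR cells and -0.09 in shSCR cells, a rise of 0.32 or 1.25-fold (adjusted p = 0.0288, from the authors' deposited table). The other 5 H3 genes did not pass. HIST1H3C, at 0.24, had an adjusted p of 0.0695, and HIST1H3B, HIST1H3F, HIST1H3H and HIST1H3D had changes of 0.14, 0.12, 0.09 and 0.0048 according to the authors' deposited table. Many replication-dependent core genes are known to be near-identical in coding sequence, H3 genes among them, so reads could be shared between them, and whether that affects these or the other calls was not tested.

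H4 genes all encode the same protein, and 0 of 9 passed the threshold, with 0 at an unadjusted p below 0.05 and 0 by the authors' second estimate. Of all 4616 genes 729 had an unadjusted p below 0.05 upwards and 634 downwards. By the adjusted p 16.4% of all genes passed, and 20.3% by the second estimate. Among so few genes a count of 0 is not far from those adjusted shares. Their median log2 change was 0.07, and 7 of 9 were positive. HIST4H4, which lies away from the main histone clusters, had the highest at 0.23 (adjusted p = 0.199), and HIST1H4E followed at 0.19 (adjusted p = 0.224, from the authors' deposited table). For HIST1H4A, HIST1H4B, HIST1H4F, HIST1H4C and HIST1H4D the authors' deposited table gave changes between 0.06 and 0.13. HIST1H4H had -0.05 and HIST1H4I, which overlaps HIST1H2BK in the RefSeq annotation, had -0.22 (adjusted p = 0.532, from the authors' deposited table).

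H2A and H2B genes often lie back to back and share one promoter region, which allows a comparison of neighbours. Starts on opposite strands, facing away from each other and under 500 bases apart, gave 8 such pairs, 194 to 248 bases apart in the RefSeq promoter table. The pair that holds the H2A gene that rose is given below, as the stretch between both starts in the direction of HIST1H2AC. Capitals mark matches on either strand to the octamer (ATTTGCAT), an element known from H2B promoters, to CCAAT or to TATAAA.
HIST1H2AC and HIST1H2BC, chr6:26123927-26124171 (plus): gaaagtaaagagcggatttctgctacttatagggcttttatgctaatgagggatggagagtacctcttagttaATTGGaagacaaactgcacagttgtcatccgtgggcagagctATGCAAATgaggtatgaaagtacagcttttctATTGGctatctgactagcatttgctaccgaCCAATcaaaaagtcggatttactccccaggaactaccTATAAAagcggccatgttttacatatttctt

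The octamer lay 130 bases before the HIST1H2AC start, in the direction of HIST1H2BC. It was present within 250 bases of the start in 10 of 13 H2B and 9 of 12 H2A promoters, against 1.66% of all promoters, and because paired windows overlap, both genes of a pair can count the same match. In 7 of the 8 pairs the H2A gene had the more positive TE change, and the median difference, H2A minus H2B, was 0.22 on the log2 scale (range -0.25 to 0.49). For HIST1H2AC and HIST1H2BC the changes were 0.32 and 0.24 in the authors' deposited table, a difference of 0.08. HIST1H2AD and HIST1H2BF had 0.26 and -0.24 in the authors' deposited table, the widest gap, though HIST1H2AD overlaps HIST1H3D in the RefSeq annotation. The exception was HIST1H2AI with -0.18 beside HIST1H2BL with 0.08 in the authors' deposited table. Of these 16 genes HIST1H2AC alone passed, against 16.4% of all genes. Their implied standard errors ran from 0.0935 (HIST1H2AC) to 0.467 (HIST1H2AG), beside the median difference of 0.22. The differences within pairs were not tested.

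**Figure D2:**
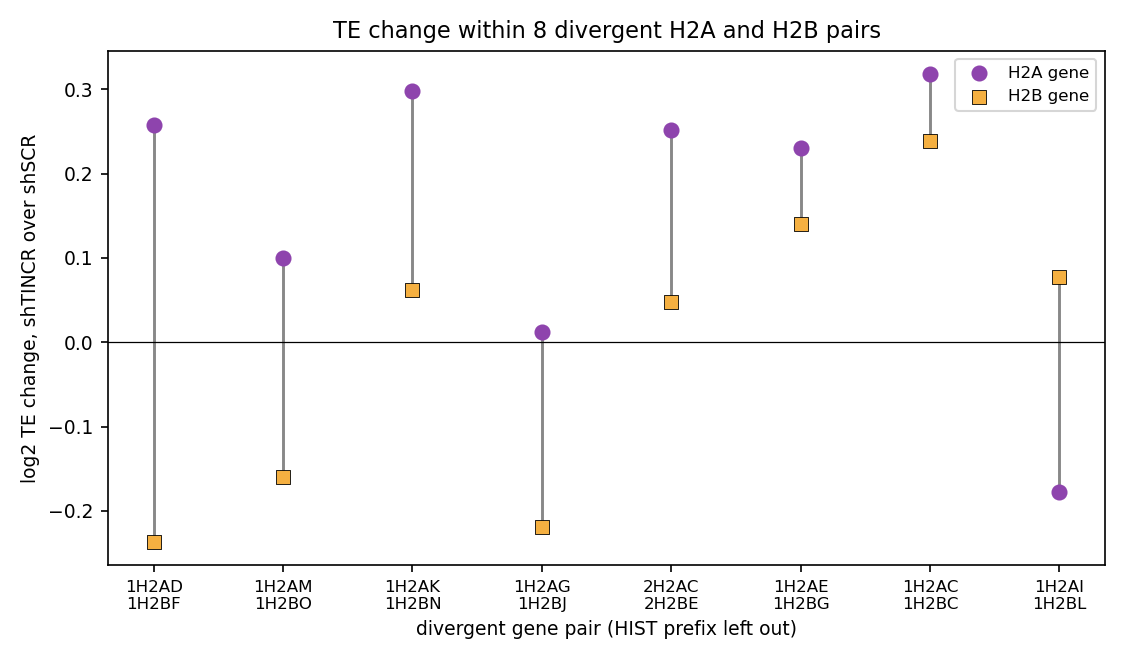
Log2 TE change, shTINCR over shSCR, of the H2A gene (circle) and the H2B gene (square) of each of 8 divergent pairs, joined by a line. Pairs are ordered by the difference, from 0.49 on the left to -0.25 on the right, and in 7 of 8 the circle lies above the square.

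The variant genes had few members but several rises. Of 6 measured variants 3 rose and 0 fell, with a median log2 change of 0.31 (1.24-fold) and all 6 changes positive. Of the 47 replication-dependent genes 6 rose and 1 fell, with a median of 0.10 (1.07-fold). Of these 6 rises 4 were linker genes. By the authors' second estimate 10 of the 47 replication-dependent genes and 3 of the 6 variants rose. By it 20.3% of all genes passed in either direction, and the share that rose was not computed. At an adjusted p below 0.01, 3 replication-dependent genes and 2 variants rose, where 7.82% of all genes passed in either direction. The shares that rose were 50% of variants and 12.8% of replication-dependent genes, against 8.23% of all genes, and they were not tested against each other.

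H2AFX encodes the H2A variant that is phosphorylated around DNA breaks, and its mRNA can end in a stem-loop or in a poly(A) tail. Its log2 TE was 0.17 in shTINCR cells and -0.25 in shSCR cells, a rise of 0.42 or 1.33-fold (adjusted p = 0.00149, from the authors' deposited table). H2AFX overlaps DPAGT1 in the RefSeq annotation, and the effect of reads shared there was not tested. H3F3B encodes the replacement H3 that is placed into chromatin outside replication. It stood at -0.94 in shTINCR cells and -1.29 in shSCR cells, a rise of 0.35 or 1.27-fold (adjusted p = 0.00522, from the authors' deposited table).

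The H2A.Z genes passed in one case only, and their difference was not tested. H2AFV had a log2 TE of -0.41 in shTINCR cells and -0.68 in shSCR cells, a rise of 0.27 or 1.21-fold (adjusted p = 0.0409, from the authors' deposited table). H2AFZ, which encodes the other H2A.Z protein, had 0.27 in shTINCR cells and 0.20 in shSCR cells, a change of 0.07 (adjusted p = 0.617, from the authors' deposited table). For H2AFY, the gene of macroH2A, the authors' deposited table gave -0.40 in shTINCR cells and -0.46 in shSCR cells, a change of 0.06 (adjusted p = 0.739).

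**Figure D3:**
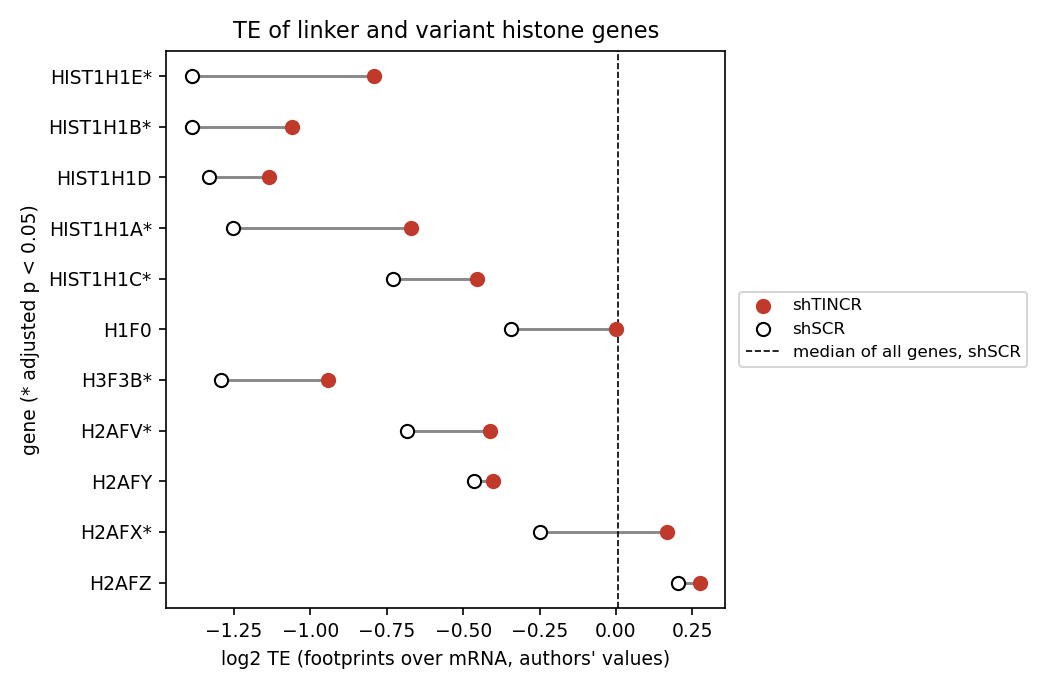
Log2 TE in shTINCR cells (red) and shSCR cells (white) of the 6 linker genes, upper rows, and the 5 core variants, lower rows, with the median of all genes in shSCR cells as a dashed line. For every gene shown the red point lies to the right of the white one, by 0.06 to 0.60.

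The level of TE also differed between classes. It is a ratio within each gene, and which region was counted is not stated here. In shTINCR cells the median log2 TE was -1.22 for H2B, -0.79 for replication-dependent H1, -0.50 for H2A, -0.48 for H3 and 0.32 for H4, and -0.20 for variants. In shSCR cells it was -1.12 for H2B, -1.33 for replication-dependent H1, -0.66 for H2A, -0.54 for H3 and 0.25 for H4, and -0.40 for variants. H1 thus had the lowest median in shSCR cells, and H2B in shTINCR cells. Classes next to each other in this order overlapped in range, so their order is a description only, while replication-dependent H1 genes (-1.13 to -0.46 in shTINCR cells and -1.39 to -0.73 in shSCR cells) all lay below the lowest H4 gene (-0.20 in shTINCR cells and -0.35 in shSCR cells). In shSCR cells 42 of the 53 genes lay below the median of all genes, 0.0078, including all 6 linker genes and 3 of 9 H4 genes.

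Single genes stood apart from their class. HIST1H2AD had the highest log2 TE of the histone genes, 2.19 in shTINCR cells and 1.94 in shSCR cells in the authors' deposited table. In the RefSeq annotation HIST1H2AD overlaps HIST1H3D, whose change was near 0. HIST1H4E had 1.21 in shTINCR cells and 1.02 in shSCR cells, and HIST1H2BN had 0.91 in shTINCR cells and 0.84 in shSCR cells, in the authors' deposited table. The lowest values belonged to HIST1H2BJ, with -1.90 in shTINCR cells and -1.68 in shSCR cells, and HIST1H2BD, with -1.90 in shTINCR cells and -1.72 in shSCR cells, in the authors' deposited table. HIST1H2BD is among the H2B genes known to give polyadenylated transcripts as well.

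**Figure D4:**
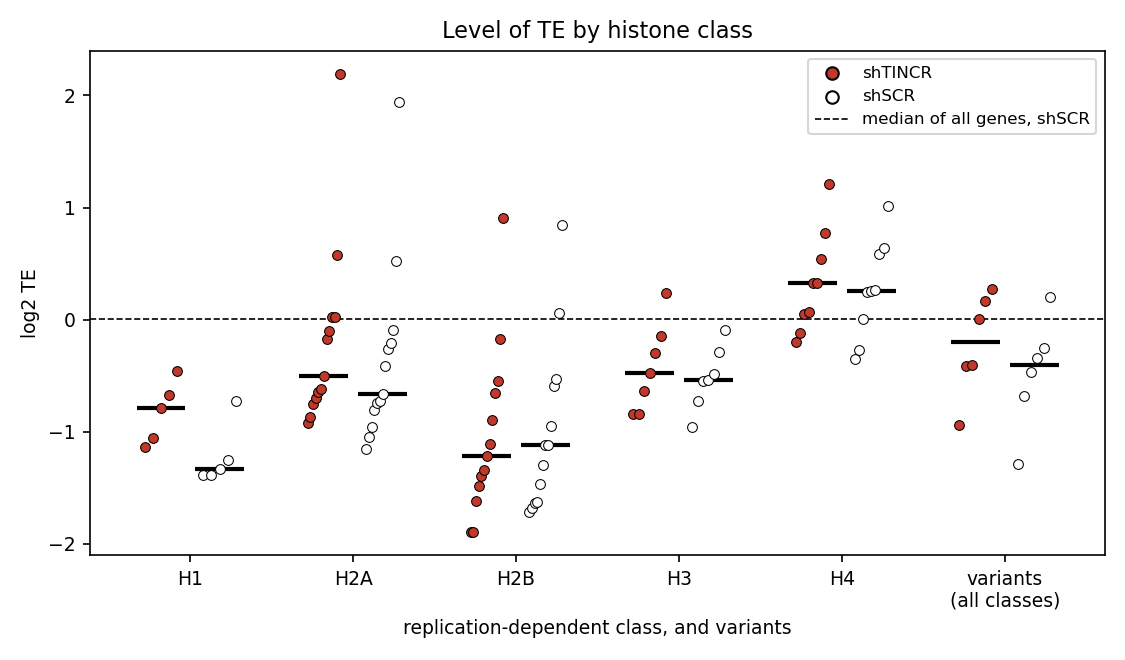
Log2 TE of each replication-dependent histone gene by class, and of the variants together, in shTINCR cells (red) and shSCR cells (white), with class medians as black bars and the median of all genes in shSCR cells dashed. H4 is the only class with medians above the dashed line, 0.32 in shTINCR and 0.25 in shSCR cells, and the replication-dependent H1 medians are -0.79 in shTINCR and -1.33 in shSCR cells.

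Genes of proteins that handle histones were described in the same way. Of 34 listed histone chaperones and import factors 28 were measured, of which 8 fell and 0 rose, against 8.17% of all genes that fell, with a median log2 change of -0.15. The import receptor IPO7, which with KPNB1 carries H1 into the nucleus, fell by 1.09 in log2 units (adjusted p = 1.61e-30, from the authors' deposited table). The introns of IPO7 hold small nucleolar RNA genes, and the effect of their reads was not tested. KPNB1 itself fell by 0.24 (adjusted p = 0.0278, from the authors' deposited table). NAP1L1, a chaperone of H2A and H2B, fell by 0.84 (adjusted p = 2.28e-17), and the nucleolar chaperone NPM1, a gene with many pseudogenes, fell by 0.54 (adjusted p = 3.15e-09, from the authors' deposited table). ANP32E, which removes H2A.Z, fell by 0.45 (adjusted p = 0.0324), and the H4 acetyltransferase HAT1 fell by 0.29 (adjusted p = 0.0334, from the authors' deposited table). The other 2 that fell, RBBP4 and NAP1L4, had -0.31 and -0.27 in the authors' deposited table.

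Of 24 listed genes of histone mRNA processing and decay 13 were measured, of which 1 fell and 0 rose, with a median of -0.04. That count is near the 8.17% of all genes that fell. The exonuclease XRN1 fell by 0.46 (adjusted p = 0.035, from the authors' deposited table). SLBP stood at 0.07 in both conditions, a log2 change of -0.0034 (adjusted p = 0.985, from the authors' deposited table). NPAT, the coactivator of replication-dependent histone genes, had a change of -0.26 (adjusted p = 0.191, from the authors' deposited table).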

How the data were processed

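Footprint and RNA libraries of WM902B cells were prepared in 2 replicates per condition, per the labels' protocols. Per the submitters' processing notes, the tools included HTSeq 0.5.3p9, DESeq 1.10.1, TopHat2 2.0.8, SAMtools 0.1.18, CASAVA 1.9 and Bowtie2 2.1.0, with genome hg19 and no role given for any of them. The log2 columns of the authors' deposited table are the log2 TE of each condition and its log2 change in 2 versions with a final choice, per the file headers. The p-value columns are those of each version, the final one and an adjusted p-value, per the file headers. In all 4616 rows the deposited final p-value equalled the larger of both versions. The sources used here do not give how multi-mapping reads, which near-identical histone genes could share, were treated. The planned count test was not run, because the table holds 0 libraries with values of their own.

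Histone genes were chosen by symbol, and every one is named in the text. Of each other list the members that passed were named, at most 6 by smallest p, and RBBP4, NAP1L4, SLBP and NPAT were chosen after their values were seen. The genes and lists were chosen with earlier results of these data known. Counts, medians and folds (2 to the power of the log2 change) were computed with Python 3.11.15, pandas 2.3.3, numpy 2.4.6 and scipy 1.17.1 and drawn with matplotlib 3.10.9, and the adjustment step was tested on simulated data. Symbols were matched to RefSeq (GRCh38.p14): 49 of 53 were older names of 1 gene and 4 were assigned by exclusion, and 48 had a promoter sequence. Motifs were searched on both strands in the 250 bases before the start. Alternatives were both versions of the estimate, thresholds of 0.01 and 0.1, centring, and leaving out noisy or overlapping genes.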

Additional observations from a re-analysis of the deposited data

How the results depend on the processing

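The first version of the authors' estimate left all 53 calls on their side of the threshold. Neither version had a p-value above the deposited one in any row. Under either version a call could therefore be gained but not lost, so the calls kept are no check on those that passed. In the second version HIST1H2AH, HIST1H3C, HIST1H2AD and HIST1H2AE also passed. By it 9 of 47 core genes, 10 of 47 replication-dependent genes and 4 of 13 H2A genes rose. Of all genes 20.3% passed by it in either direction. At an adjusted p below 0.01, 5 histone genes rose and 0 fell, with 2 rises among linker, 3 among core and 3 among replication-dependent genes, and HIST1H1B, HIST1H1C, HIST1H3J, H2AFV and HIST1H3A no longer passed. At 0.1, HIST1H2AH, HIST1H3C and H1F0 passed as well, with 2 rises among H2A genes. Of all genes 7.82% passed at 0.01 and 22% at 0.1, in either direction. Without the 462 genes of largest implied standard error, 43 histone genes were left and 0 of their calls changed. That error is computed from the same change and p-value, so leaving these genes out could hardly have changed a call. Without the 7 genes that overlap another gene, an alternative chosen after seeing the data, the H2B median was 0.048, since 2 of its 13 values were left out. The median of replication-dependent H2A genes was then 0.17 over 12 genes, against 0.23 over 13. Of the 4 variants left 2 rose, where 8.23% of all genes rose. Centring on the median of all genes and the other alternatives moved the class medians by less than the implied standard error. No paired analysis was possible because the table holds no values per library, and for the same reason no replicate was left out. Depth is unknown, and the effect of reads that near-identical histone genes could share was not tested.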
